A study of Macaca fascicularis with 12 samples.

Results

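The immediate early genes FOS, FOSB, JUN, JUNB, EGR1, ATF3, DUSP1, IER2, ZFP36 and NR4A1 were followed through 12 iliac arteries that differed in the size of their atherosclerotic plaque. They were read through the array probes to which the platform annotation gives exactly 1 of these symbols, and all 10 were found, among 18160 genes that a tested probe names in this way. This came to 12 probes of 53877 tested. JUNB and NR4A1 had 2 probes each and every other gene had 1. All 12 probes had a value on all 12 arrays, and none of their values lay at the floor set for dim signals, so every gene had a value to compare in every artery. That floor was the 5th percentile of positive intensities and not a detection limit. By mean level JUN stood at percentile 31.5 of all probes and the dimmer NR4A1 probe at 25.9. A further 2 probes carry one of these symbols together with that of another gene and were not used.

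The arteries came from 12 female cynomolgus monkeys (Macaca fascicularis), 1 artery and 1 CodeLink array of human probes per animal. Every animal was over 20 years old, had been ovariectomized for 4 years, had eaten high fat food for 8 years and had no further treatment, so no artery came from an animal on an ordinary diet. The submitters sorted the arteries by plaque area into small (n = 4, from 0 to 0.113 mm2, 2 of them with no plaque), medium (n = 5, from 0.3 to 0.542 mm2) and large (n = 3, at 1.003, 0.61 and 0.873 mm2 for replicates 1, 2 and 3). Each biopsy went into RNAlater at surgery, and the whole piece of artery was minced and extracted, so a value stands for the mixture of cells in that piece.

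Immediate early genes are transcribed within minutes of a stimulus, before any new protein is made, when MAP kinases and calcium signals activate factors such as SRF, the ELK proteins and CREB that already sit in the cell. Most of them encode transcription factors that set the next wave of genes, and several encode proteins that switch the response off again. In vessel walls they are known to respond to stretch, injury and growth factors. FOS and FOSB pair with JUN or JUNB to form AP-1. EGR1 and the nuclear receptor NR4A1 bind DNA at their own sites, ATF3 is a stress-induced relative of AP-1, and IER2 is a small nuclear protein. DUSP1 is a phosphatase that inactivates MAP kinases, and ZFP36, tristetraprolin, hastens the decay of short-lived messenger RNAs.

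Values below are log2 intensities on arrays whose medians lie near 0 on that scale, and a difference of 1 is a doubling. The number of probes with a value ran from 53832 to 53867 over the arrays. The arterial origin was checked on smooth muscle and endothelial markers. The smooth muscle genes MYH11 and ACTA2 lay between 8.16 and 9.59 and between 7.40 and 9.38, and the endothelial gene PECAM1 between 4.31 and 4.92. Other markers of the same lists were dim: CNN1 of smooth muscle and VWF of endothelium had medians of -0.40 and 0.00, and endothelial KDR was at the floor on 4 arrays. Differences were tested with limma, a moderated linear model fitted to all probes at once, with Benjamini-Hochberg adjustment over 53877 probes and a threshold of 0.05.

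FOS, the partner of JUN in AP-1, was brightest in the arteries with large plaque. Its log2 intensity was 0.06, 2.39, 1.18 and 2.36 in small replicates 1 to 4, and 3.21, 2.16, 1.78, 1.14 and 2.62 in medium replicates 1 to 5. In large replicates 1, 2 and 3 it was 4.43, 3.12 and 3.37. All 3 large arteries were above all 4 small ones, whereas medium replicate 1 lay above large replicate 2. The lowest value belonged to the small artery with the most plaque in its group. FOS in large exceeded small by 2.14 ± 0.60 (SE, n = 3 and 4; limma adjusted p 0.108) and medium by 1.46 ± 0.58 (n = 3 and 5; limma adjusted p 0.953). Neither passed the threshold, although the 95% intervals ran from 0.83 to 3.45 and from 0.21 to 2.71.

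DUSP1, the phosphatase that ends MAP kinase signalling, stood in nearly the same order. The small arteries had 1.65, 2.73, 2.34 and 3.30, the medium ones 3.83, 3.19, 2.90, 2.40 and 3.32, and the large ones 4.90, 4.42 and 3.74. Large replicates 1 and 2 were above all 9 arteries of the other groups, while large replicate 3 lay below medium replicate 1. The difference between large and small was 1.84 ± 0.42, which is 3.59-fold, with a limma adjusted p of 0.058. That missed the threshold, and DUSP1 was called under 7 of 25 other settings, among them the fits without medium replicate 1 and without small replicate 4, with adjusted p-values from 0.0277 to 0.239 over all 25. Large exceeded medium by 1.22 ± 0.40 (limma adjusted p 0.885) and medium exceeded small by 0.62 ± 0.37 (limma adjusted p 0.399).

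JUN, the main partner of FOS in AP-1, was dim, with all but 1 of its 12 values below the array median. It measured -1.90, -1.12, -1.94 and -2.34 in small, -1.05, -1.32, -1.79, -1.39 and -2.98 in medium, and 0.13, -1.09 and -0.48 in large. The large arteries were above every small one but overlapped with medium at large replicate 2. The difference from small was 1.35 ± 0.45 (limma adjusted p 0.169) and that from medium 1.23 ± 0.43 (limma adjusted p 0.951). Medium and small differed by 0.12 ± 0.39, far less than their spread.

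ATF3, the stress-induced factor, was the most variable of the 10, with a within-group SD of 1.05 that exceeded the SD of nearly all probes (percentile 98.8). Small arteries ranged most widely, with 3.06, 4.08, 2.52 and 6.32. The medium ones had 4.11, 3.30, 4.36, 3.49 and 4.36, and the large ones 5.26, 5.32 and 4.53. Small replicate 4, an artery with no plaque, therefore held the highest ATF3 of all, while the 3 large arteries lay above all 5 medium ones. Large exceeded medium by 1.11 ± 0.67 (limma adjusted p 0.962) and small by 1.04 ± 0.70 (limma adjusted p 0.504). Without small replicate 4 the latter was 1.82 and without small replicate 3 it was 0.55, neither of them called.

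**Figure D1:**
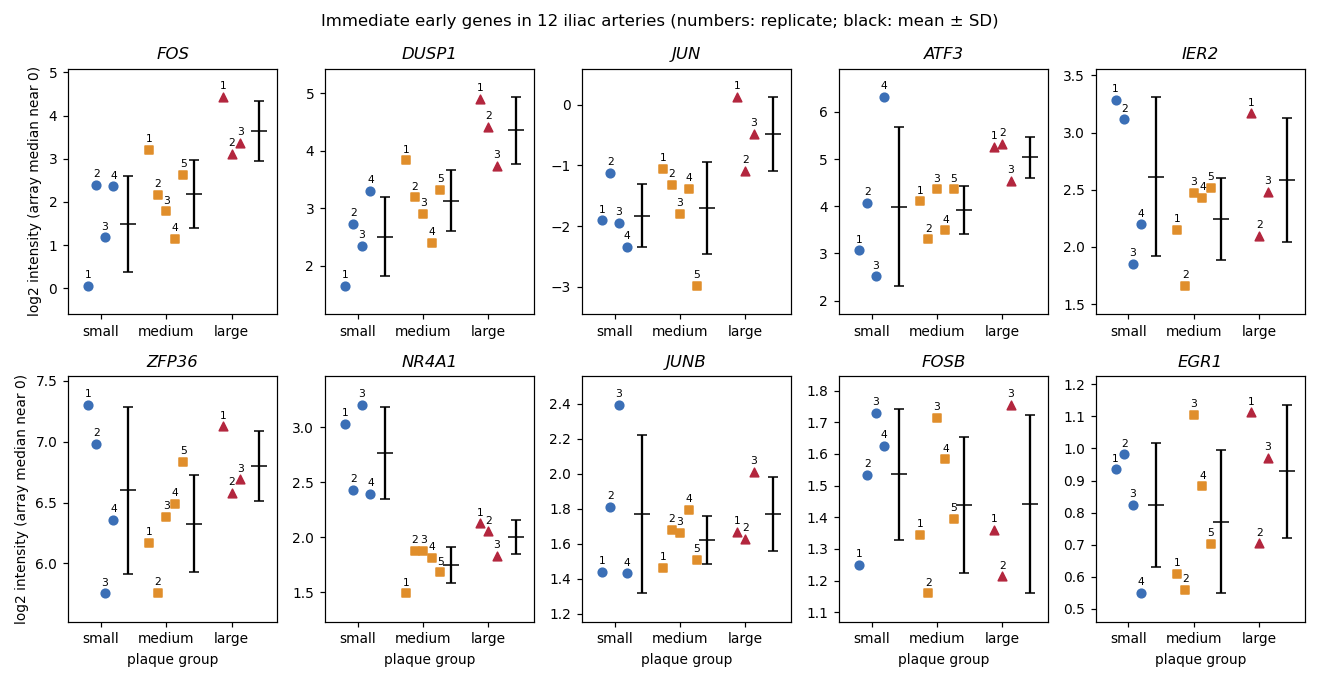
Log2 intensity of each gene (brighter probe for JUNB and NR4A1) on the vertical axis in the 4 small, 5 medium and 3 large plaque arteries, 1 point per artery with its replicate number, and the mean ± SD in black beside each group. The vertical axes differ between panels. FOS, DUSP1 and JUN in all 3 large arteries lie above the 4 small ones, and NR4A1 in the small arteries lies above the others.

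IER2 and ZFP36 did not follow the plaque groups. IER2 had 3.29, 3.12, 1.85 and 2.20 in small, 2.15, 1.66, 2.47, 2.43 and 2.51 in medium, and 3.17, 2.10 and 2.48 in large. ZFP36, the mRNA decay factor, had 7.31, 6.98, 5.75 and 6.36 in small, 6.17, 5.76, 6.38, 6.49 and 6.84 in medium, and 7.13, 6.58 and 6.69 in large. For both genes, small replicates 1 and 2 and large replicate 1 were the 3 highest arteries, so that the groups overlapped throughout. Large and small differed by -0.03 ± 0.37 in IER2 (95% interval -0.85 to 0.78) and by 0.20 ± 0.35 in ZFP36 (-0.57 to 0.97), with limma adjusted p-values of 0.978 and 0.826. Those intervals still allow differences of 0.57 or more in either direction.

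EGR1, FOSB and JUNB varied little. Among all probes, their within-group SDs of 0.21, 0.23 and 0.29 stood at percentiles 15.1, 19 and 31.3. EGR1 ranged from 0.55 to 0.98 in small, 0.56 to 1.10 in medium and 0.70 to 1.11 in large. FOSB ran from 1.25 to 1.73, 1.16 to 1.71 and 1.21 to 1.76 in the same order, and JUNB on its brighter probe from 1.43 to 2.39, 1.46 to 1.79 and 1.63 to 2.01. No comparison of these 3 genes between groups was called. Their differences between large and small were 0.11 ± 0.19, -0.09 ± 0.20 and 0.00 ± 0.23, and the widest of the 95% intervals, that of JUNB, ran from -0.51 to 0.51. The second JUNB probe also overlapped between all groups, with a difference of 0.05 ± 0.19.

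NR4A1, an orphan nuclear receptor, was the member that passed the test. On its brighter probe it measured 3.04, 2.43, 3.21 and 2.40 in small, 1.49, 1.88, 1.88, 1.82 and 1.68 in medium, and 2.13, 2.06 and 1.83 in large. Every small artery was above every other artery. NR4A1 fell in medium against small by 1.02 ± 0.20, which is 2.03-fold (limma adjusted p 0.0172, n = 5 and 4). The difference of large from small, -0.76 ± 0.22, was not called (limma adjusted p 0.121).

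The second NR4A1 probe, which the annotation ties to an expressed sequence tag and not, like the first, to reference transcripts, gave another picture. It was dim, at -2.05, -2.41, -1.88 and -2.12 in small, -1.67, -2.69, -1.93, -1.69 and -2.14 in medium, and -1.19, -1.77 and -0.89 in large. Its 3 large arteries were above all 4 small ones, and medium overlapped with both. Large exceeded small by 0.83 ± 0.28 (limma adjusted p 0.173), and medium and small differed by 0.09 ± 0.25. With the mean of both probes in place of the brighter one, the difference of medium from small was -0.46 and was not called (limma adjusted p 0.194), and that of large from small turned to 0.03. The fall of NR4A1 thus rests on 1 of its 2 probes, and which of them tracks the monkey transcript was not tested.

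**Figure D2:**
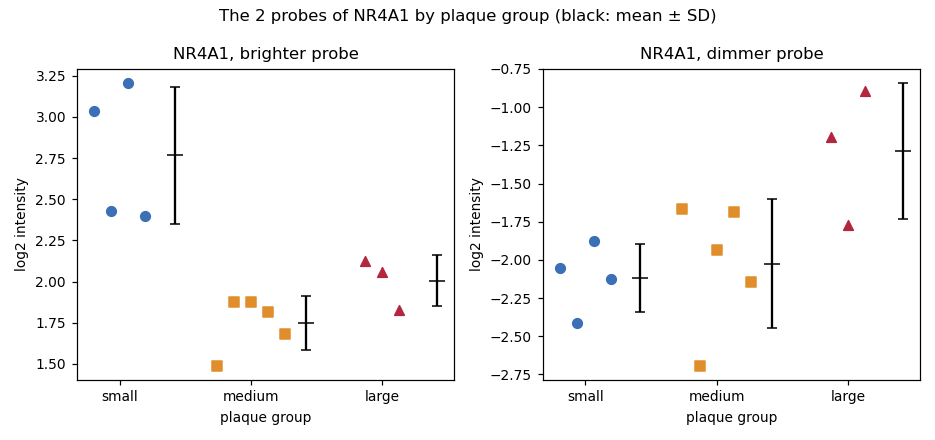
Log2 intensity of the brighter (left) and the dimmer (right) NR4A1 probe on the vertical axis by plaque group, 1 point per artery, with mean ± SD in black. On the brighter probe the small arteries lie above all others, and on the dimmer one the large arteries lie above the small ones.

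Arteries with large plaque were compared with those with small plaque to set the extremes of the design side by side. None of the 10 genes was called by limma on its brighter probe, beside 1.15% of all probes, and 4 of 10 had an unadjusted p under 0.05, beside 16.1%. FOS, DUSP1 and JUN lay entirely above small and NR4A1 entirely below it, so 4 of 10 did not overlap, against 14.5% of probes, of which 5.99% lay above and 8.51% below. The median difference over the 10 genes was 0.15, against -0.10 over all probes, and ran from 0.04 without large replicate 1 to 0.31 without small replicate 1. In all, 6 of 10 differences were above 0, against 40.1%.

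Medium against small asked the same of the arteries with intermediate plaque. Of the 10 genes NR4A1 alone was called, beside 3.14% of probes, 1.17% of them lower in medium. It was also the only gene with an unadjusted p under 0.05, beside 18.3% of probes, and the only one whose groups did not overlap, beside 8.28%, of which 4.34% lay below small. FOS, DUSP1 and JUN had positive differences of 0.68, 0.62 and 0.12, none of them called, and the other 7 were negative, so that 3 of 10 were above 0, against 40.8% of probes. As animals were left out, FOS ranged from 0.20 (without small replicate 1) to 0.98, DUSP1 from 0.34 (without the same artery) to 0.89, and JUN from -0.05 to 0.44. The median over the 10 was -0.08, against -0.09 over all probes. Without medium replicate 2, 5 of 10 differences were positive.

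The 2 groups with established plaque were then compared with each other. All 10 genes had a difference above 0 on the brighter probe, against 47.1% of all probes, with a median of 0.40 against -0.02. The values ran from 0.004 for FOSB to 1.46 for FOS, and the dimmer JUNB probe differed by -0.08. No gene was called by limma, and neither was any of the 53877 probes (0%). At an unadjusted p under 0.05 stood DUSP1, JUN and FOS, 3 of 10, against 5.04% of probes, of which 2.81% were higher in large. ATF3 alone did not overlap between the groups, against 5.45% of probes, 2.52% with large above. Without large replicate 1 none of the 10 reached that p, while all 10 differences remained above 0. They were above 0 in 9 or 10 of 10 genes whichever animal was left out.

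**Figure D3:**
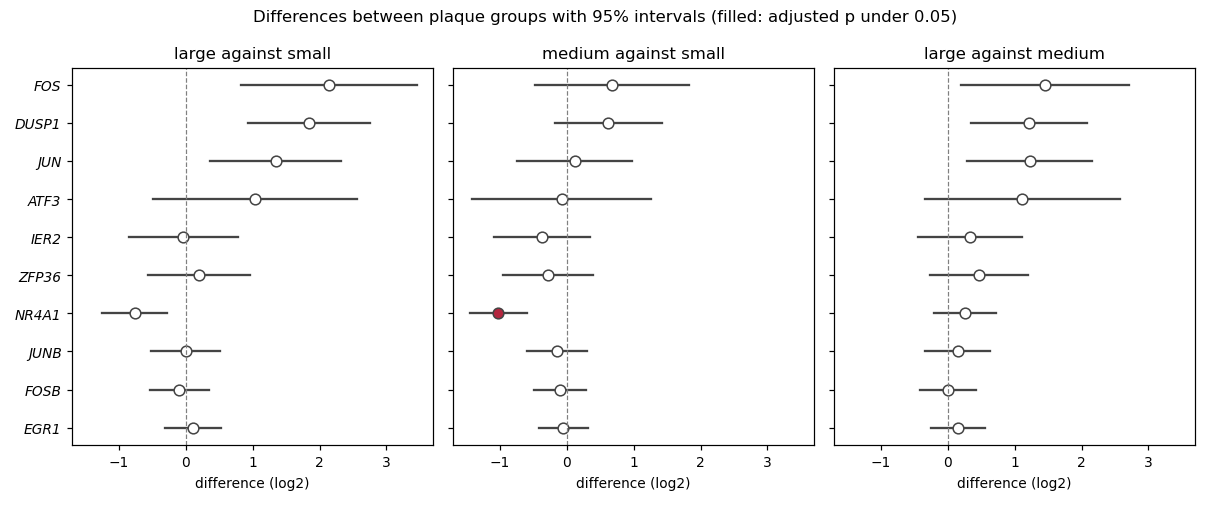
Difference in log2 intensity (horizontal axis) for each of the 10 genes between large and small, medium and small, and large and medium plaque arteries, with 95% intervals from the limma fit. A filled point marks an adjusted p under 0.05, which NR4A1 reached in medium against small. All 10 differences between large and medium are above 0.

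Each large artery was also examined on its own. Large replicate 1, with the most plaque of all at 1.003 mm2, had the highest FOS, DUSP1, JUN and EGR1 of the 12 arteries, 4 of 10 genes, where 5.91% of probes were highest on that array. It was among the top 3 arteries for 7 of 10 genes, a count for which the share over all probes was not computed. It was above all medium arteries for 8 of 10 genes, against 17% of probes. Relative to the medium means its FOS was higher by 2.25, JUN by 1.83, DUSP1 by 1.77, ATF3 by 1.33, IER2 by 0.92 and ZFP36 by 0.80. FOSB at -0.08 and JUNB at 0.05 lay close to the medium means.

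Large replicate 3, at 0.873 mm2, was above the medium mean for 10 of 10 genes but by less, with a median of 0.38 against 0.86 in replicate 1. The medians over all probes were -0.01 in replicate 3 and -0.02 in replicate 1. How many of all probes lay above the medium mean on that array of replicate 3 was not computed. JUN at 1.23 and FOS at 1.19 stood out most, and its FOSB was the highest of all arteries at 1.76, 1 of 10 genes where 4.52% of probes were highest on that array. It exceeded all medium arteries for 5 of 10 genes, beside 13.5% of probes. Large replicate 2, at 0.61 mm2 close to the medium range, did so for 3 of 10, DUSP1, ATF3 and NR4A1, beside 18.1%. Its median excess over the medium mean was 0.28, against -0.03 over all probes, and its IER2, EGR1 and FOSB were below that mean. All 3 large arteries thus had DUSP1, FOS, JUN, ATF3, ZFP36, NR4A1 and JUNB above the medium means on the brighter probes. JUNB exceeded its mean by only 0.006 in replicate 2. In IER2, EGR1 and FOSB the large arteries lay on both sides of the medium means. The share of all probes above the medium mean in all 3 was not computed.

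Plaque area in mm2 was next used in place of the groups. Over all 12 arteries the slopes of log2 intensity were 2.39 ± 0.74 per mm2 for FOS, 1.96 ± 0.56 for DUSP1, 1.54 ± 0.57 for JUN and -0.94 ± 0.39 for NR4A1 (SE, n = 12), with limma adjusted p-values of 0.14, 0.112, 0.204 and 0.257. No gene was called, beside 0.583% of probes, and these 4 of 10 had an unadjusted p under 0.05, beside 15.9%. Without large replicate 1 that count was 2. Slopes were above 0 for 7 of 10 genes, against 41.2% of probes. The dimmer NR4A1 probe had a slope of 1.12 ± 0.31 per mm2 (limma adjusted p 0.104), opposite in sign to the brighter one, and the mean of both probes had 0.09.

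The slope was fitted again over the 8 medium and large arteries alone. All 10 genes had a positive slope on the brighter probe, against 49.1% of all probes, with a median of 1.41 per mm2 against -0.01. The dimmer JUNB probe had -0.19 ± 0.36. FOS at 3.14 ± 1.03, JUN at 2.55 ± 1.00, DUSP1 at 2.22 ± 0.90, ATF3 at 2.05 ± 0.80, ZFP36 at 1.43 ± 0.43 and IER2 at 1.39 ± 0.47 per mm2 (SE, n = 8) each had an unadjusted p under 0.05, 6 of 10 against 5.5% of probes, of which 3.17% rose with area. Their limma adjusted p-values ran from 0.745 to 0.871, and no probe of the array was called (0%). Without large replicate 1, none of the 10 kept an unadjusted p under 0.05 and the median slope was 1.10. Without medium replicate 2, the artery with the smallest plaque of the 8, 3 of 10 did, with a median of 1.06. IER2 and ZFP36 thus had a steeper slope over these 8 arteries than over all 12, where they had 0.21 ± 0.45 and 0.40 ± 0.42. That difference was not tested.

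**Figure D4:**
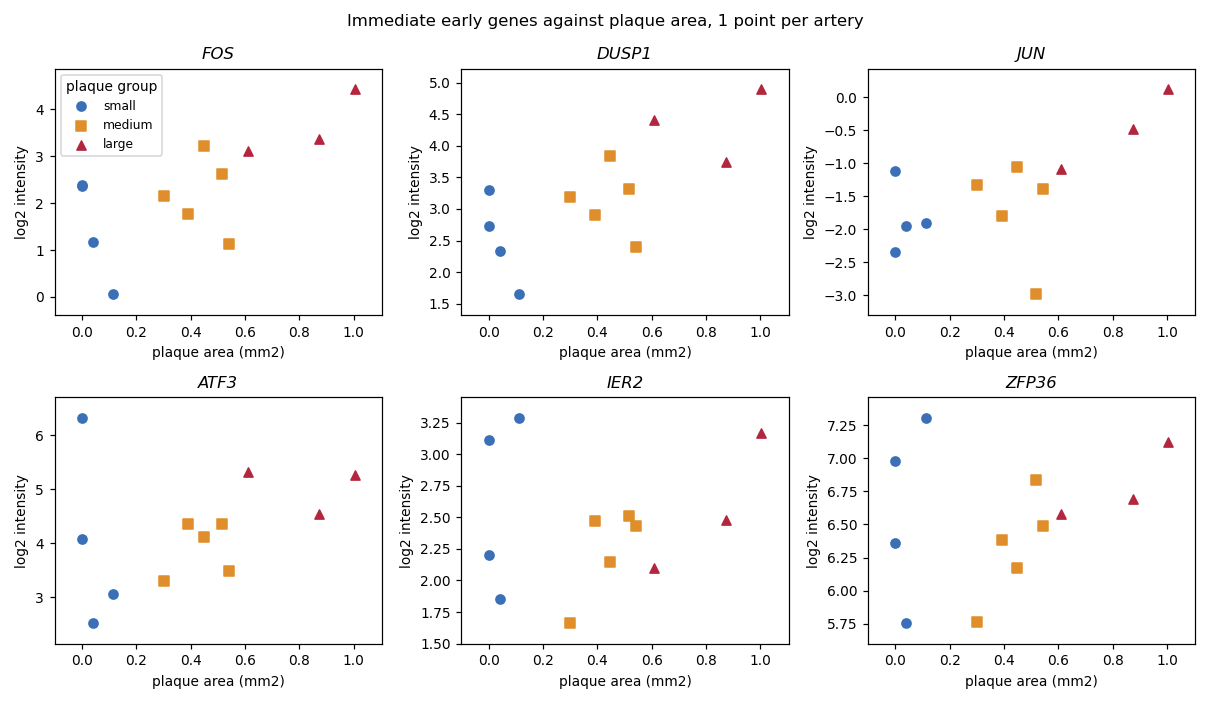
Log2 intensity of 6 genes (vertical axis) against plaque area in mm2 (horizontal axis), 1 point per artery, with the plaque group given by colour and shape. Large replicate 1, at 1.003 mm2, is the highest artery for FOS, DUSP1 and JUN. IER2 and ZFP36 are higher in small replicate 1 than in it.

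Across the 12 arteries the genes did not vary as 1 block. Of the 45 pairs, 27 correlated positively and 18 negatively, with a median r of 0.10, and 2 passed after Benjamini-Hochberg adjustment over the 45. FOS and DUSP1 had a Pearson r of 0.96 (permutation p 3e-05, adjusted 0.000675) and a Spearman rho of 0.92 (permutation p 0.00011, adjusted 0.00337). IER2 and ZFP36 had an r of 0.93 (permutation p 2e-05, adjusted 0.000675) and a rho of 0.92 (permutation p 0.00015, adjusted 0.00337). Without the 2 arteries farthest from the median of the first gene the r-values were 0.90 and 0.88. After the group means were removed they were 0.91 and 0.94, so both relations also held within the plaque groups.

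Both pairs were also mutual closest matches on the whole array. None of the other 53583 probes with values on every array correlated with FOS more closely than DUSP1 did, nor with DUSP1 more closely than FOS. The same was true of IER2 and ZFP36. Between the pairs there was little relation, with an r of 0.00 for FOS and IER2 and 0.06 for DUSP1 and ZFP36. Small replicate 1 had the lowest FOS and DUSP1 and the highest IER2 and ZFP36 of all arteries. That array held the highest value of 19% and the lowest of 12.6% of all probes and also had the highest 99th percentile of intensity, 195.8. Neither share was the largest, since small replicate 3 was highest for 20.7% and large replicate 1 lowest for 12.9%. The r-values without small replicate 1 were 0.94 and 0.91.

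**Figure D5:**
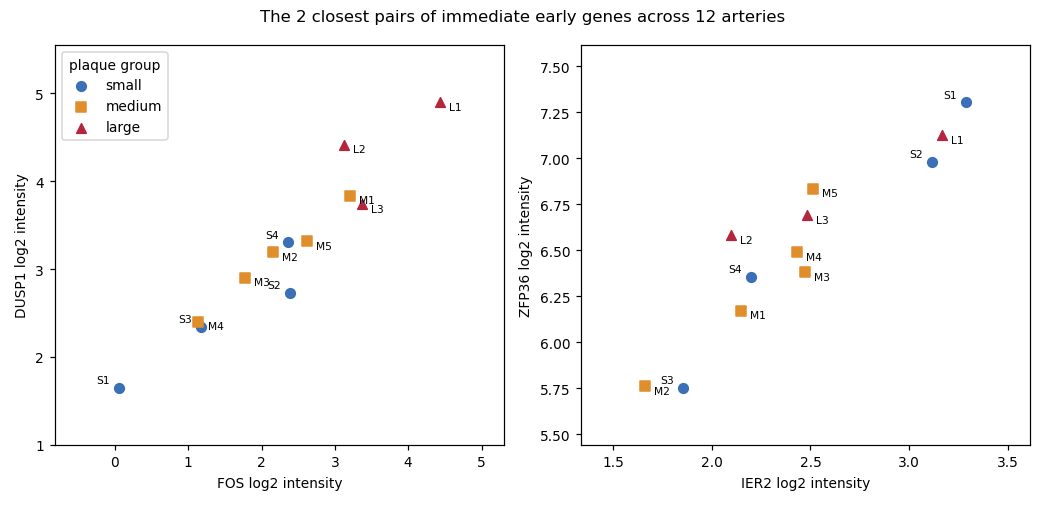
Log2 intensity of DUSP1 against FOS (left) and of ZFP36 against IER2 (right), 1 point per artery, labelled S, M or L for small, medium or large with the replicate number. Both pairs lie close to a line across all groups, with Pearson r-values of 0.96 and 0.93, and S1 is lowest on the left and highest on the right.

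EGR1 and IER2 came next by r, at 0.69 (permutation p 0.0133, adjusted 0.165). ATF3 and DUSP1 had an r of 0.68 and came next by rho, at 0.78 (permutation p 0.0147 and 0.00367, adjusted 0.165 and 0.055). Neither pair passed. JUN correlated with FOS at 0.58, but at 0.18 after removal of the group means (permutation p 0.0484 before it, adjusted 0.297). NR4A1 on its brighter probe ran opposite to FOS, at -0.55 (permutation p 0.0635, adjusted 0.297), also not past the threshold.

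The genes whose pattern lay closest to the mean of all 10 were sought among 13021 brighter probes with 1 gene symbol. STAR, the cholesterol carrier that starts steroid synthesis, had a Pearson r of 0.90 with that mean over 12 arteries. SEMA4C, NCK2, HERC3, HES1 and ESD followed, with r from 0.80 to 0.78. HES1 encodes a repressor downstream of Notch and NCK2 an adaptor of tyrosine kinase signalling. Without large replicates 1 and 3, the arteries farthest from the median of the mean, r was 0.68 for STAR and between 0.41 and 0.70 for the other 5. These values describe the best of many probes and carry no test.

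A wider list of 76 genes of the same response, chosen for this purpose with earlier results of these data known, was read on the brightest probe of each of the 64 measured. In large against small 2 of 64 rose and none fell, beside 1.15% of probes. In medium against small 4 rose and 1 fell, beside 1.97% and 1.17%. No gene of the list was called between large and medium, where 3 of 64 had an unadjusted p under 0.05, beside 5.04% of probes, or by limma in the slope over the medium and large arteries, where 5 of 64 did, beside 5.5%. Both counts are near those of all probes. With area over all 12 arteries 1 of 64 was called as rising, beside 0.483% of probes. The list's median difference or slope lay between 0.01 and 0.15 in all 5 comparisons. As animals were left out, the calls in large against small numbered between 1 (without large replicate 1 or 3 or small replicate 2) and 4 (without small replicate 1 or 3). In medium against small they numbered between 1 (without small replicate 2; 3 without medium replicate 5) and 7 (without small replicate 1), and in the slope over all arteries between 0 and 3.

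Among the AP-1 partners, BATF, a leukocyte factor that pairs with JUN proteins, rose by 2.30 ± 0.24 in large (limma adjusted p 0.00119) and by 2.04 ± 0.21 in medium (limma adjusted p 0.000499). It ranged from 0.16 to 0.81 in small, from 2.34 to 3.14 in medium and from 2.50 to 3.08 in large, with no overlap of small and the others. Among all probes, 5.99% had large entirely above small and 3.94% had medium entirely above small. The BATF call held under all 25 alternatives in both comparisons. BATF also rose with area, by 2.83 ± 0.49 per mm2 (limma adjusted p 0.0327), a call lost under 9 of 25 alternatives. Large and medium differed by 0.26 ± 0.23. Of the 10 measured AP-1 partners and related factors it was the only one called in either comparison with small.

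KLF6, a zinc finger factor induced early after injury, rose by 2.08 ± 0.39 in large (limma adjusted p 0.0262) and by 1.75 ± 0.34 in medium (limma adjusted p 0.0175). The first call was lost under 5 of 25 alternatives and the second under 2, and a dimmer KLF6 probe differed by 0.29 and 0.15, neither called. In medium, IER3, an early gene that protects from apoptosis, rose by 1.04 ± 0.24 (limma adjusted p 0.0371) and EGR4 by 1.93 ± 0.40 (limma adjusted p 0.0236). These calls were lost under 11 of 25 and 4 of 24 alternatives. ELK4, a partner of SRF, fell in medium by 1.39 ± 0.27 (limma adjusted p 0.0184) on the brightest of its 3 probes, while the others differed by -0.14 and 0.54 and were not called. The ELK4 call was lost under 3 of 25 alternatives. No call was made among the 7 MAP kinase phosphatases, the 5 TTP relatives and RNA binding proteins, the 8 secreted and signalling products, the 3 NF-kB feedback genes or the 5 heat shock genes in any group comparison by limma. At an unadjusted p under 0.05 in medium against small there were 4, 0, 4, 0 and 1 of them, beside 18.3% of probes, and in large against small 1, 0, 4, 0 and 1, beside 16.1%.

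CEBPD and KLF2 had the smallest p of the list between large and medium, with differences of 1.55 ± 0.41 and 1.87 ± 0.55 (limma adjusted p 0.79 and 0.83), followed by MAFF at 0.71 ± 0.28. CEBPD, an acute phase factor, lay between 0.52 and 1.45 in large, between -1.25 and -0.28 in medium and between -1.62 and 0.28 in small, and so was higher in every large artery than in any other. Among all probes, 5.99% had large entirely above small and 2.52% had large entirely above medium. The share above both was not computed. KLF2, the flow-responsive factor of endothelium, lay between 1.85 and 3.19 in large, between -0.53 and 1.34 in medium and between 0.18 and 2.63 in small. MRTFB, a coactivator of SRF, was the third by p in the slope over the medium and large arteries, at -0.94 ± 0.37 per mm2 (limma adjusted p 0.859), after CEBPD at 2.78 ± 0.89 and KLF2 at 3.54 ± 1.16. A dimmer MRTFB probe had 0.96 ± 1.13, opposite in sign.

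Cell type markers moved with the groups as well, and in these pieces of tissue fewer cells of a type and less RNA per cell cannot be told apart. Relative to small, limma called 6 of 9 macrophage markers higher in large and 7 of 9 in medium, beside 0.948% and 1.97% of probes. CD68 of the same list differed by -0.66 in large and -0.44 in medium and was not called. The mean level of the 9 macrophage markers, each gene centred on its own mean, ran from -2.53 to -1.44 in small. It ran from 0.47 to 1.54 in medium and from 0.53 to 1.38 in large, so that medium and large overlapped. The mean level of the 10 immediate early genes, computed likewise, ran from -0.36 to 0.15 in small, from -0.35 to -0.02 in medium and from 0.26 to 0.78 in large. Without ATF3 it ran from -0.24 to 0.18, from -0.28 to 0.00 and from 0.16 to 0.75, so that large replicate 2 lay below small replicate 2. The 6 endothelial markers ran from -0.16 to 0.37, from -0.36 to 0.10 and from -0.27 to 0.06, and the 4 smooth muscle markers from 0.27 to 1.12, from -1.25 to 0.06 and from -0.38 to 0.31. All 4 smooth muscle markers were lower than in small in both groups. SMTN alone was called, falling in medium by 2.39 ± 0.47 (limma adjusted p 0.0184), beside 1.17% of probes. Between large and medium all 4 differences were above 0, against 47.1% of probes, with SMTN at 1.42 ± 0.51 (limma adjusted p 0.953). Measured markers of red blood cells (ALAS2, SLC4A1) and of neutrophils (CSF3R, S100A12, CXCR2, MPO) were not called between groups by limma. Between large and small, 0 of 2 and 2 of 4 had an unadjusted p under 0.05, beside 16.1% of probes. Those 2 neutrophil genes differed in sign, with CXCR2 at -1.10 and MPO at 0.56. The T cell gene GZMA, a granzyme, rose in medium by 2.53 ± 0.45 (limma adjusted p 0.0122). In medium against small, 4 of 5 T cell markers had positive differences at an unadjusted p under 0.05, beside 7.83% of probes. The 4 skeletal muscle markers were all lower than in small in both groups, and TNNT3, a fast troponin, fell in medium by 0.68 ± 0.16 (limma adjusted p 0.046). Mean levels of the 5 T cell markers ran from -1.10 to 0.01 in small, from 0.02 to 0.80 in medium and from -0.14 to 0.46 in large, and those of the skeletal muscle markers from -0.07 to 1.51, from -0.98 to 0.02 and from -1.15 to 0.01. The part of the cell mixture in the immediate early values was not tested.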

How the data were processed

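Iliac artery RNA of 12 monkeys was hybridized to CodeLink arrays of human probes with a single dye, per the labels' protocols. What the authors deposited is 1 intensity per probe and array on a linear scale, with array medians near 1 and some values below 0, so scaling and background subtraction had been done. How this was done is not given in the sources used here. A mismatch of a human probe to monkey sequence can lower its signal, so differences were taken between animals on the same probe. The choice of the brightest probe, the percentiles among probes and the levels of markers do compare probes, and this limit applies to them. The number of arrays limits the precision.

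Tested were 53877 of 54359 probes, those measured in 2 or more animals of every group. A floor of 0.111, the 5th percentile of positive intensities, replaced anything lower (5.45% of the values) before log2 was taken. No other normalization was applied. Symbols came from the platform annotation, which can be old, and all 10 also occur in the macaque assembly T2T-MFA8v1.1. Of the tested probes 23267 had 1 symbol, 900 several and 29710 none here. A gene was represented by its brightest probe.

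Tests used limma (version 3.58.1, R version 4.3.3, lmFit and eBayes) on 3 group means over 12 arrays or on a slope with plaque area, two-sided, with Benjamini-Hochberg adjustment over all tested probes. Correlations used two-sided permutation tests of 100000 resamples. The members and lists were chosen with earlier results of these data known. Named were the 10 members, the called genes of the wider list (up to 4 each way, or the 3 of smallest p), the 6 most alike genes and cell markers. The alternatives covered normalization, floor, dim and incomplete probes, the probe of a gene, variance model, array weights, samples fitted, threshold, replicate number as a block, scale of area and animals left out. On simulated data with 53584 probes the fits recovered 68% of 4-fold and 12% of 2-fold changes between large and small, 77% and 33% between medium and small, and 68% and 20% between large and medium, with 6, 4 and 2 false calls. Of slopes of 2 and 4 per mm2, 62% and 94% were recovered over all arteries and 5% and 55% over the medium and large ones. The changed probes, 100 of each size per comparison, were drawn at random, and all others had no change. These shares are averages over such probes and do not give the recovery of single genes. FOS and ATF3 varied more within groups than most probes (SD percentiles 97.3 and 98.8).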

Additional observations from a re-analysis of the deposited data

How the results depend on the processing

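Of 1432 values of the 12 probes under alternatives, 1365 kept their sign and side of the threshold, 58 changed sign without a call, 7 gained and 2 lost a call, and none reversed one. The 7 were DUSP1 in large against small, which made 1 gene called with the floor at the 10th percentile, without dim probes, with a variance trend, with array weights and at a threshold of 0.1, and between 0 and 1 when an animal was left out (1 without medium replicate 1 or small replicate 4). The 2 were NR4A1 in medium against small, leaving 0 genes called with the mean over probes and with the replicate block (limma adjusted p 0.194 and 0.0856). Positive differences in that comparison ranged from 2 to 5 as animals were left out. Replicate numbers were not taken to pair the animals: the deviations of 10 same-numbered pairs correlated between -0.16 and 0.22, with only 4 above 0.1. As a hint from the data, 6 of 11 arteries correlated best with their own number. With the block, 1 of 10 genes had an unadjusted p under 0.05 between large and medium.

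Median differences between groups moved by less than 0.22, the within-group spread (SD) of the mean level of the 10 genes. This spread is larger in size than the medians of large against small (0.15) and medium against small (-0.08). It therefore cannot show that those medians are stable. Median slopes are per mm2, a unit that this spread does not have. Over all arteries the median slope was 0.30 and ranged from 0.0915 (without large replicate 1) to 0.59 as animals were left out. It was 0.56 and 0.59 when small replicates 1 and 2 were dropped. Over the medium and large arteries it was 1.41 and ranged from 1.06 to 1.68 (1.68 without large replicate 3). A slope on ranks of area is in another unit and gives no such median. The 2 closest pairs were tested again under alternatives chosen after seeing the data, and r stayed between 0.93 and 0.97 for FOS and DUSP1 and between 0.89 and 0.96 for IER2 and ZFP36.

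Counts over all probes moved more. Large against small called 617, and 1397 without dim probes, 1161 with a variance trend, 1254 with array weights, 379 in a fit of these groups only, 1747 at a threshold of 0.1, 316 without the 2 animals whose identity numbers lie apart, and between 112 and 1216 as animals were left out (112 and 132 when large replicates 3 and 1 were dropped, 261 and 1216 when small replicates 2 and 1 were). Medium against small called 1693, and 866 with the replicate block, 3200 at 0.1, 773 without those 2 animals, and between 847 and 1568 as animals were left out (847, 958, 972 and 1011 without small replicate 2 and medium replicates 1, 4 and 5). Large against medium called 0, and 1 with quantile normalization, with the mean over probes or at 0.1, 3 with array weights, 4 in a fit of these groups only, and between 0 and 3 as animals were left out. The slope called 314, and 174 and 509 with the lower and higher floor, 1121 without dim probes, 777 with a variance trend, 0 with the replicate block, 1498 at 0.1, 0 without those 2 animals, and between 0 and 746 as animals were left out, 0 of them when large replicate 3 and 1 when small replicate 2 or 4 was dropped. Causes were not tested. The probes of JUN and the second NR4A1 were the dimmest of the 12, though never at the floor.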
